A study of Mus musculus with 96 samples.

Results

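The clustered replication-dependent histone genes encode the core histones H2A, H2B, H3 and H4 and the linker histone H1 that a cell makes while it copies its DNA. They were chosen by symbol alone, as the rows named Hist1h to Hist4h, the newer names H2ac, H2bc, H3c and H4c with a number, and H1f1 to H1f6, without the row H2ac5-ps. This gave 66 of the 55487 genes in the count table, namely 6 H1, 19 H2A, 17 H2B, 12 H3 and 12 H4 genes. The annotation labels 2 of those counted as H2A genes, H2ac14 and Hist1h2al, as pseudogenes. The annotation places 56 of them on chromosome 13 and 10 on chromosome 3 (GRCm38). The rule used no measured value.

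All 96 cells belonged to 1 group. Wild type mice aged 6 to 8 weeks received methimazole, a drug that injures the olfactory epithelium (OE). Horizontal basal cells (HBCs), the reserve stem cells of this tissue, were isolated 2 days later and cultured. Both daughter cells of 48 divisions were collected one by one, ERCC spike-in was added, and RNA caught on oligo-dT beads was sequenced by G&T-seq. There were no untreated or uninjured cells, and the labels name neither the mouse nor the culture of a cell. The cells therefore counted as 1 sample, and every share and correlation describes these cells, without a p-value.

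Each library held 1 cell and summed to between 29454150 and 44849003 gene counts. The HBC markers Trp63 and Krt5 reached 10 counts in 96 of 96 cells, while Kit, a marker of globose basal cells, had a count of 0 in each of them. Levels in cells and pairs are normalised counts, scaled by the ERCC spike-in, and levels between genes are TPM, which is scaled to transcript length. The authors' counts come from read coverage. For the 60 members with 1 single-exon transcript, 98.3% of the 3757 counts above 0 equalled coverage times length divided by 75, rounded up. Of the 466 counts of 1, 48.3% stood for less than 0.5 of a unit, so a count of at least 10 was used to call a gene present.

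Most messenger RNAs end in a poly(A) tail. Replication-dependent histone mRNAs do not: their transcripts end just past a short stem-loop, which binds the stem-loop binding protein SLBP, and they are made in S phase and degraded when replication ends. Oligo-dT beads catch poly(A) tails, so that the reads on these genes come from whichever of their transcripts were caught. Several histone genes are known to make tailed transcripts as well, by reading past the stem-loop to a poly(A) signal, for example in differentiating cells.

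The gene models of the members end in different places relative to the stem-loop. A search of their transcripts found the stem-loop consensus in 43 of 66 members, against 140 (0.639%) of 21901 protein-coding genes, of which 97 were no members. The model ended within 50 bases past the stem-loop in 20 members and ran further past it in 23. In 19 the model stopped near the stop codon, and 4 had a long end without a stem-loop (Hist1h2bq, Hist1h2br, H2bc4 and H2bc21). A poly(A) signal stood in the last 50 bases of 14 members.

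The stem-loops of members that the results turn on are shown with 5 bases on each side where the transcript goes so far, 5′ to 3′, with the stem-loop in capitals. The model of Hist1h2ap ended 3 bases past its stem-loop (chr13:21833026-21833049, minus strand) and that of H2ac11 ended 23 bases past it (chr13:22042478-22042503, minus strand). The models of H2bc8 (chr13:23571838-23571863, plus strand), H4c9 (chr13:22040961-22040986, minus strand) and H1f2 (chr13:23739507-23739532, plus strand) went on for 155, 330 and 840 bases.
Hist1h2ap: aaaaaGGCTCTTTTCAGAGCCatc
H2ac11: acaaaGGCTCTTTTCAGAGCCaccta
H2bc8: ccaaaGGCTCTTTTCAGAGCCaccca
H4c9: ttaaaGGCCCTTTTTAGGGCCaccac
H1f2: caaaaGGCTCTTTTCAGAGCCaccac
The same 16 bases were shared by Hist1h2ap, H2ac11, H2bc8, H1f2 and 19 other members, while H4c9 was 1 of 2 members with its form.

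The downstream ends of H4c9 (chr13:22040636-22040661, minus strand) and H1f2 (chr13:23740337-23740366, plus strand) carried a poly(A) signal, in capitals here.
H4c9 end: tttacATTAAAagtattctatgctaa
H1f2 end: cttctAATAAAaagcgtttagttttcattc
The annotated transcript of H2bc4 has 2 exons, within a span of 8710 bases, and holds no stem-loop.

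The copies are hard to tell apart by reads. Windows of 100 bases were compared with all other transcripts of the annotation. At least 50% of the windows were found in another gene for 26 members, and none for 7. The median was 65.3% in H2A, 49.7% in H3, 40.1% in H2B, 25.4% in H4 and 0.396% in H1. Hist1h2ap and Hist1h2ao shared 92.2% and 92.7% of their windows with each other, so their values cannot be separated and are close to 1 measurement. H2ac15 (10.5%), H2ac6 (8.06%), H4c9 (15.1%) and H1f2 (5.07%) shared few. In addition, 25 members overlap another gene model, among them H2bc6, which overlaps H1f4.

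In the deposited data 53 of 66 members (80.3%) reached 10 counts in 10% of the cells or more, the filter used below, against 26.1% of all genes in the table. All 66 members had a count in at least 1 cell. The 13 below the filter were H1f6, H2ac1, H2ac19, H2ac21, Hist1h2al, H2bc1, H2bc7, H2bc9, H2bc18, H3c6, H3c13, H4c6 and H4c14. Of these, H2ac1, H2ac19, H2ac21, Hist1h2al, H2bc1 and H2bc18 had at most 7 counts in any cell. A cell had 10 or more counts for 3 to 46 members, with a median of 25.5. Most members were low: the median TPM over cells was under 1 for 45 members, 0 for 15 of these, and 10 or more for 9.

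H2A genes stood highest. Hist1h2ap had a count of 5 in the lowest cell, 2140 in the median cell and 6107 in the highest, and its TPM was 205.8 at the median (210 ± 164, SD, n = 96 cells). Hist1h2ao followed with a median TPM of 181.7. Both were present in 94 cells with 10 or more counts, so that nearly every library held them. The third H2A gene, H2ac11, had from 2 to 2533 counts, with a median of 529 counts and a median TPM of 50.1.

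The leading H4, H2B and H1 genes are given next. H4c9 encodes histone H4 and ranged from 0 to 4773 counts, with a median of 650.5 counts and a median TPM of 40.8. H2bc4 encodes an H2B and ranged from 0 to 16528 counts, with a median of 830.5 counts and a median TPM of 33.7. The linker histone gene H1f2 had from 0 to 17010 counts, a median of 331 counts and a median TPM of 10.2. In each of these 3 genes the SD exceeded the mean TPM (61.7 ± 68.5 for H4c9, 70.8 ± 116 for H2bc4 and 29.2 ± 61.4 for H1f2, SD, n = 96 cells), so that their levels overlapped across cells.

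Of the remaining leading members, H2bc11 (median TPM 17.3), H2bc8 (14.5) and H2ac12 (13.1) stood above H1f2. H2ac15 (9.15), Hist1h2an (7.51) and H2ac7 (4.45) stood below it. By family, the summed TPM per cell had a median of 540.4 for H2A, 136.9 for H2B, 81.3 for H4, 40.5 for H3 and 28.6 for H1. On the normalised counts, Hist1h2ap, Hist1h2ao and H2bc4 made up 46.8% of the summed mean level of all members.

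**Figure D1:**
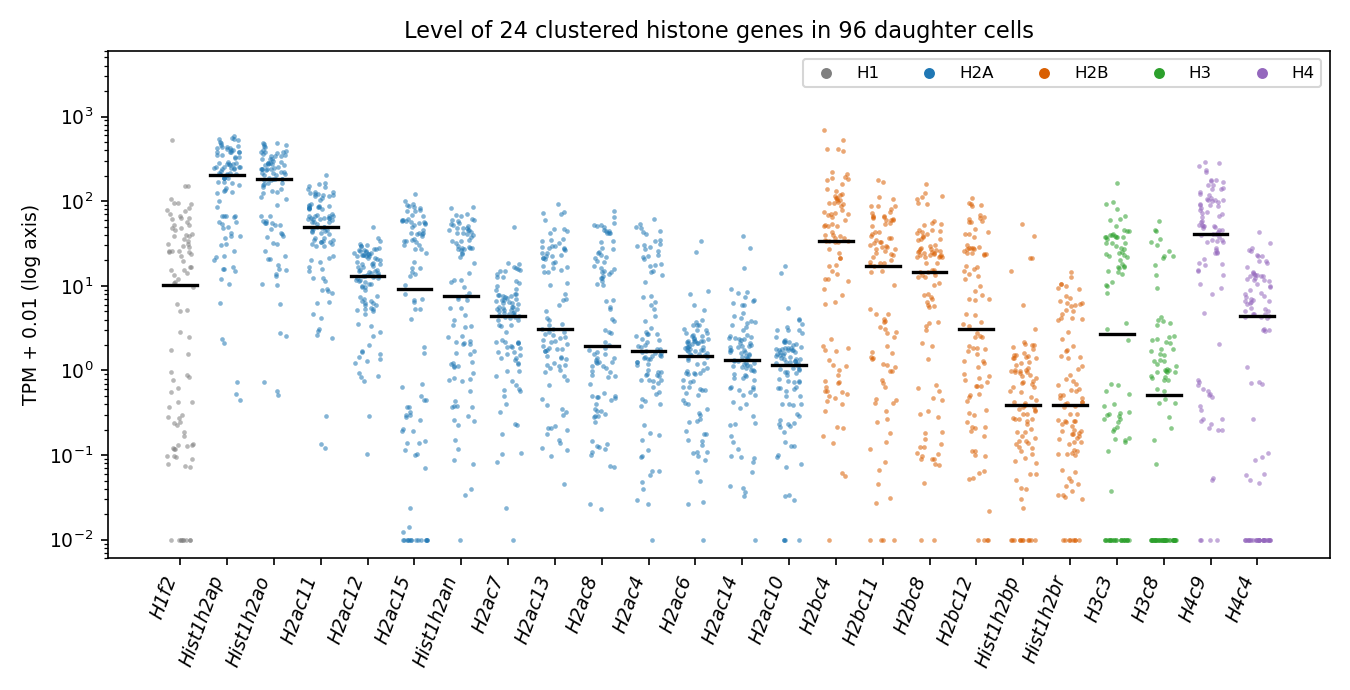
TPM + 0.01 (log axis) of the 24 members with the highest median TPM in 96 cells, ordered by family. Each point is a cell and each bar a median. Hist1h2ap and Hist1h2ao lie highest. Many members spread from near 0 to above 100 TPM, for example H1f2, H2ac15, H2bc4, H2bc8, H2bc11, H3c3 and H4c9.

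Several members were near absent in some cells and high in others. H4c9 was under 10 counts in 19 cells, between 10 and 99 in 6, and at 100 or more in the other cells, 36 of them at 1000 or more. H1f2 was under 10 counts in 29 cells and at 1000 or more in 29. Hist1h2ap was under 10 counts in 2 cells and at 1000 or more in 62.

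The H3 genes, which encode H3.1 and H3.2, were lower and less often present. H3c3 reached 10 counts in 51 cells and ranged up to 2189 counts, with a median TPM of 2.67. H3c8 reached 10 counts in 45 cells, H3c7 in 39, H3c15 in 37, H3c10 in 33 and H3c14 in 32. The other 4 H3 genes that passed did so in 21 to 24 cells. No H3 gene had a median TPM above that of H3c3.

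Among the other linker histone genes, H1f4 reached 10 counts in 43 cells, H1f3 in 29, H1f5 in 28 and H1f1 in 12. Their highest counts were 1304, 1374, 781 and 677, all below that of H1f2. The H4 genes after H4c9 were H4c4, with 59 cells and up to 1153 counts, H4c3 and Hist1h4n with 39 cells each, and Hist1h4m with 38. All encode H4. In H2B, H2bc12 reached 10 counts in 64 cells, Hist1h2br in 59, Hist1h2bq in 55 and H2bc6 in 38. In H2A, H2ac6 did so in 83 cells, H2ac7 in 81, H2ac13 in 76, H2ac8 in 69 and H2ac4 in 67, with median TPM from 1.46 to 4.45.

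The summed level of all members was 413 normalised counts in the lowest cell, 12479 in the median cell and 73324 in the highest. The members took 0.00115% to 0.149% of a cell's gene counts. The median of the 12 sets of 8 cells, as the deposited names give them, ranged from 4485 to 18693. Both daughters of pair 27 had the highest sums, 73324 and 45666. These came largely from H2bc4 (16528 and 12861 counts) and H1f2 (17010 and 4973 counts). Both daughters of pair 5 (413 and 1881) and of pair 14 (945.5 and 1951.5) had the lowest.

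The cells were next ordered by their cell cycle genes. A G2/M score (53 genes) and an S-phase score (41 genes) were the mean z-scores of log2(normalised count + 1) over lists that held no histone gene. Slbp, Casp8ap2 and Nasp had been taken out of the S-phase list and Cenpa out of the G2/M list, as they are histone genes or act on histones. Some other genes that act on histones stayed in, such as Chaf1b in the S-phase list and Hjurp and Anp32e in the G2/M list. Over 96 cells the summed level of all members had a Spearman correlation of 0.53 with the G2/M score and of 0.23 with the S-phase score (Pearson 0.55 and 0.36), and the former was 0.43 with the means of the sets subtracted. The 2 scores correlated at 0.33 with each other. Gene counts per ERCC count, a measure of the RNA in a cell, correlated with the G2/M score at 0.51 and with the summed level at 0.58, and their part in these relations was not tested.

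The families differed in this relation. The H2A sum had a correlation of 0.75 with the G2/M score (Pearson 0.82, and 0.82 without the 2 cells farthest from the median score). The correlation was positive in 11 of 12 sets, 0.69 in CPM, which scales each cell to its total count, and 0.74 with set means subtracted. The H3 sum had 0.54, H4 0.48 and H1 0.20. The H2B sum had -0.16, and it was positive in 2 of 12 sets. In CPM, where the median of all genes fell from 0.17 to 0.03, H3 had 0.45, H4 0.38, H1 0.05 and H2B -0.43. In TPM H4 had 0.35, H1 0.05 and H2B -0.29, and with set means subtracted H4 had 0.38 and H2B -0.26.

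Of the 53 members that passed the filter, 13 (24.5%) had a correlation over 0.5 with the G2/M score, against 3.7% of the 14463 genes tested. These were 12 of 15 H2A genes, the pseudogene H2ac14 (0.57) among them, and 1 H1 gene, H1f4. Hist1h2ap stood at 0.74, Hist1h2ao at 0.73, H2ac11 at 0.73, H2ac10 at 0.70, Hist1h2an at 0.70 and H2ac15 at 0.69. The median of the members was 0.35 and that of all genes 0.17. Sisters have like G2/M scores (ICC 0.76), and the same correlation over the differences between sisters had a median of 0.11 over the members and of 0.11 over all genes, with 0.30 for Hist1h2ap and 0.28 for the H2A sum. The 3 other H2A genes were H2ac8 (0.49), H2ac18 (0.26) and H2ac20 (0.09).

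The H2A copies that can and cannot be told apart by reads were set side by side. Of the H2A genes that share fewer windows, H2ac15 (10.5% shared) had a correlation of 0.69, H2ac6 (8.06%) 0.63, H2ac8 (30.7%) 0.49 and H2ac20 (6.89%) 0.09, while the 11 H2A genes with at least 50% of their windows shared had a median of 0.69. The median of the 4 was 0.56.

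At the other end, 2 members (3.77%) had a correlation below 0, against 12.6% of all genes. Both encode H2B: H2bc4 with -0.43 and H2bc8 with -0.26. H2bc4 stayed below 0 in each setting tried, with -0.53 in CPM, -0.45 with set means subtracted and -0.44 without pair 27. H1f2 lay near 0 (0.02).

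**Figure D2:**
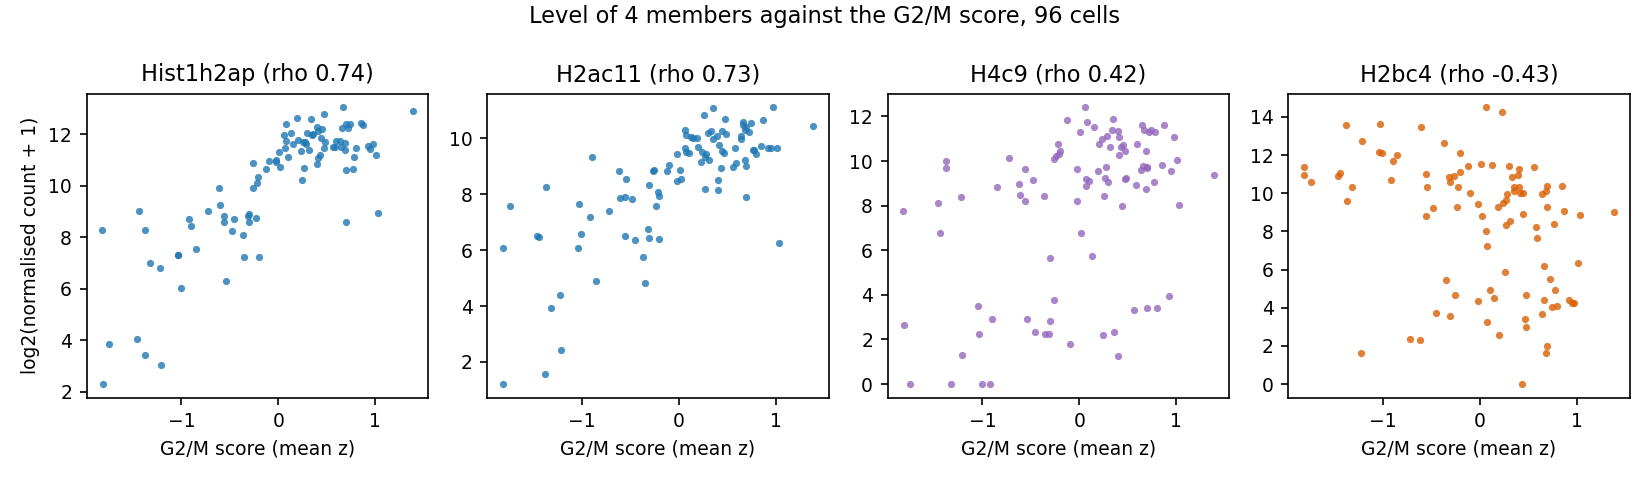
log2(normalised count + 1) against the G2/M score (mean z-score of 53 genes) for Hist1h2ap, H2ac11, H4c9 and H2bc4, 1 point per cell (96 cells). Hist1h2ap and H2ac11 climb with the score (0.74 and 0.73), H4c9 falls into a high and a low band (0.42), and H2bc4 slopes the other way (-0.43).

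The relation to S-phase genes was weaker. A correlation over 0.3 with the S-phase score was found for 13 of 53 members (24.5%), against 17.2% of all genes. The highest were H2ac7 (0.40), H2ac10 (0.40), Hist1h2ao (0.38), Hist1h2ap (0.38) and the pseudogene H2ac14 (0.38). The lowest were H2bc4 (-0.11), H2bc8 (-0.08), H2bc6 (-0.02), H2bc13 (0.01) and Hist1h2bq (0.03).

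The products of H2A and H2B genes form a dimer. Over the 96 cells the H2A sum had a correlation of 0.66 with the H4 sum and of 0.57 with the H3 sum, but of -0.03 with the H2B sum, of which H2bc4 had the highest level. Over couples of single genes, the median was 0.64 among 105 H2A couples, 0.44 among 45 H3 couples, 0.31 among 45 H4 couples and 0.29 among 78 H2B couples, and 0.22 among 195 couples of 1 H2A and 1 H2B gene. The medians of other couples across families were 0.34 for H2A with H3, 0.24 for H2A with H4, 0.22 for H2B with H4 and 0.22 for H1 with H2A, so single H2A and H2B genes did not stand out as the sums did. Among genes with under 50% of their windows shared, the medians were 0.41 over 6 H2A couples and 0.53 over 10 H3 couples. For H4 the median was 0.37 over 21 such couples and for H2B 0.15 over 28. The 55 H2A couples with at least 50% shared had 0.70. Within H2B, H2bc4 and H2bc8 correlated at 0.73, and 39.7% of the windows of H2bc8 were found in H2bc4. Hist1h2bq and Hist1h2br (0.99), H3c14 and H3c15 (0.93) and Hist1h4m and Hist1h4n (0.90) are couples in which 61.6% or more of each gene's windows were found in other genes.

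**Figure D3:**
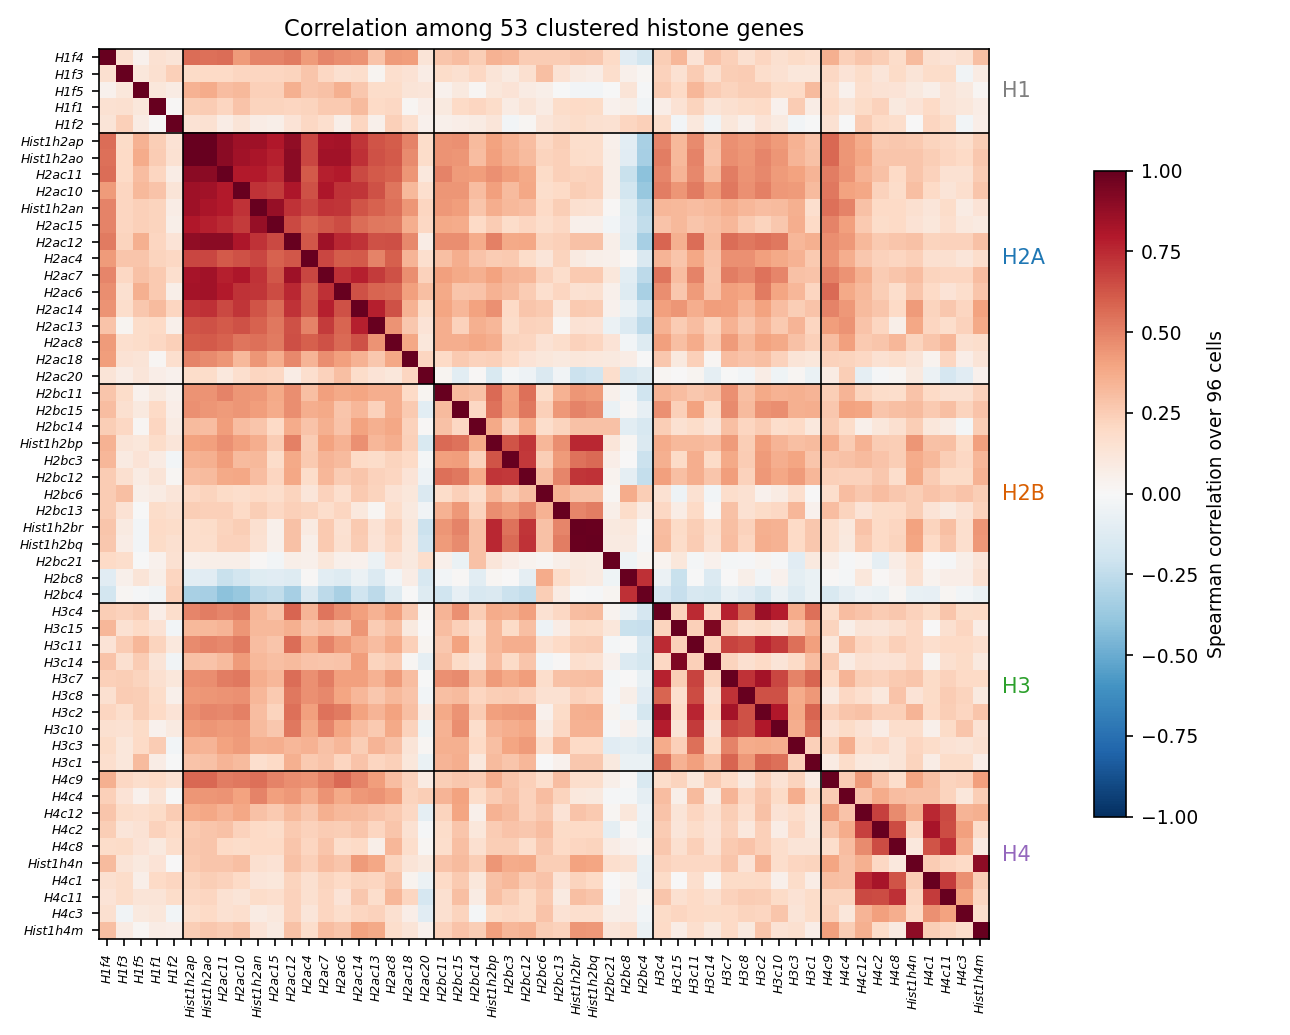
Spearman correlation over 96 cells between each 2 of the 53 members that passed the filter, on log2(normalised count + 1), grouped by family and ordered by the correlation with the G2/M score. The H2A block is the densest (median 0.64), though not among genes with under 50% of their windows shared. H2bc4 and H2bc8 are negative with most H2A genes, for example -0.41 for H2bc4 with H2ac11.

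Neighbouring genes were compared in the same way. In 13 places an H2A and an H2B gene start 175 to 305 bases apart and point away from each other, so that both share 1 promoter region. Both genes passed the filter in 11 of these. In 11 of 11 the H2A gene had the higher correlation with the G2/M score, with a median of 0.69 against 0.16, and the partners correlated with each other at a median of 0.18 (from -0.33 to 0.50). The 11 are not separate measurements. Reads hardly tell Hist1h2ap with Hist1h2br from Hist1h2ao with Hist1h2bq, and the pseudogene H2ac14 shares 91.7% of its windows with H2ac13. H2ac6 and H2bc4 start 250 bases apart and had 0.63 and -0.43. H2ac8 and H2bc8 start 175 bases apart and had 0.49 and -0.26. H2ac11 and H2bc11, the couple with the highest correlation between partners (0.50), had 0.73 and 0.41. Other levels in these couples were unequal too: median TPM was 1.46 for H2ac6 and 33.7 for H2bc4, but 205.8 for Hist1h2ap and 0.38 for its neighbour Hist1h2br. Median TPM was 0 to 0.38 for the H2B genes H2bc13, H2bc14, H2bc15, Hist1h2bp, Hist1h2bq, Hist1h2br and H2bc21. It was 3.04 to 33.7 for H2bc12, H2bc11, H2bc8 and H2bc4. The part of level in the contrast between H2A and H2B genes was not tested.

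**Figure D4:**
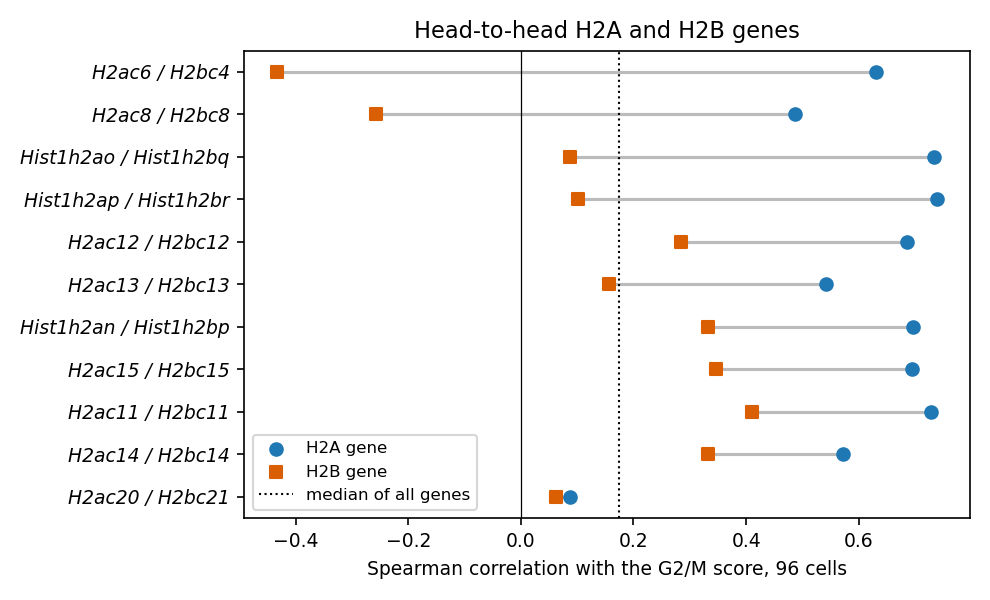
Spearman correlation with the G2/M score over 96 cells for the H2A gene (circle) and the H2B gene (square) of the 11 head-to-head couples in which both passed the filter. The dotted line is the median of all genes (0.17), and each circle lies to the right of its square, by 1.06 for H2ac6 and H2bc4 and by 0.02 for H2ac20 and H2bc21.

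The regions between these genes hold motifs that are common in histone promoters. RefSeq promoters (250 bases before to 50 bases after the start, GRCm38.p6) matched 59 of 66 members. On either strand, TATAAA, the letters of a TATA box, was found in 34 (57.6%) of them against 15.7% of 27025 genes. CCAAT, the CCAAT box, was found in 51 (86.4%) against 41.1%, in each of the matched H1, H2A, H2B and H3 genes but in 3 of 11 H4 genes. ATTTGCAT, the octamer that OCT1 binds, was found in 13 (22.0%) against 1.97%, in 6 of 17 H2A, 7 of 15 H2B and no other members. The windows of head-to-head neighbours overlap, so the same site can count for both genes. This holds for the octamers of H2ac8 with H2bc8, H2ac12 with H2bc12 and H2ac1 with H2bc1. For all 3 motifs, the members with a match are therefore not separate sites.

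Promoters of 3 head-to-head couples are shown because their members differ most (H2ac6 with H2bc4, H2ac8 with H2bc8) or have the highest correlation between partners (H2ac11 with H2bc11). They are read 5′ to 3′ for the named gene, with the letters of the TATA box, the CCAAT box and the octamer, on either strand, in capitals. They lie at chr13:23683910-23684209 (minus strand) for H2ac6, chr13:23571150-23571449 (plus strand) for H2bc8 and chr13:22042900-22043199 (minus strand) for H2ac11.
H2ac6: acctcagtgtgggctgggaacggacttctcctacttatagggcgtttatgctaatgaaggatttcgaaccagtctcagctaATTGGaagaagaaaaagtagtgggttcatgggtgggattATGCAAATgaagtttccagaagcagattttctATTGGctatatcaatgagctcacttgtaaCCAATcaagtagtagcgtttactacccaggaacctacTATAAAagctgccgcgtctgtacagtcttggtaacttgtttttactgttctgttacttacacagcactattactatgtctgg
H2bc8: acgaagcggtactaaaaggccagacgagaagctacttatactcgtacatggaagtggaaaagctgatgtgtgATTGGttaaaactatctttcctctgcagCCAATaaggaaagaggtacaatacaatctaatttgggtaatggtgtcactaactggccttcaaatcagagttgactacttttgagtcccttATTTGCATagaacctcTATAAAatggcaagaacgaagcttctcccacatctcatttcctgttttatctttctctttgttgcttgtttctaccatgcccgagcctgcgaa
H2ac11: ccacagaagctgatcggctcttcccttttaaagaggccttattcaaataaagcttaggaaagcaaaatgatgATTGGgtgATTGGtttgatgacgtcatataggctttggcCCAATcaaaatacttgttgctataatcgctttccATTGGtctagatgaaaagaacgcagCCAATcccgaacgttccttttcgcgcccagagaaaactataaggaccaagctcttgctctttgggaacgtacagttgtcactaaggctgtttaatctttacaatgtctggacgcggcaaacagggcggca
The windows of H2ac6 and H2bc8 held all 3 motifs and that of H2ac11 held CCAAT alone. A match describes these letters and is no measured binding site.

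Position within the cluster and the end of the gene model were compared in the same way. The members on chromosome 13 lie in a part from 21715763 to 22043676 (24 members), a part from 23531050 to 23934851 (31 members) and 1 gene further on, Hist1h2al. The first part had a summed TPM of 669.3 at the median and the second 190.2, against 5.83 on chromosome 3. The median correlation with the G2/M score was 0.37 in the first part, 0.34 in the second and 0.26 on chromosome 3. By gene end, the median of single members was 0.33 for the 17 that passed with a model ending at the stem-loop, 0.40 for the 19 running past it, 0.44 for the 13 ending near the stop codon and 0.07 for the 4 with a long end without a stem-loop. The summed levels of these groups, in which the highest genes weigh most, had 0.75, 0.36, 0.75 and -0.40. For spans under 1000 bases the sum of 49 members correlated with the G2/M score at 0.72 and with the S-phase score at 0.37, and for the 17 longer spans at -0.13 and 0.06. The medians of single members with the G2/M score were 0.35 and 0.33.

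Sister cells were compared next. The study compared histone protein between sister chromatids near the end of mitosis (telophase). Its 1.5-fold cutoff was set on such protein ratios, though it was also used there for transcripts. The values here are mRNA counts in separated daughter cells, so the shares are not comparable with those for protein. For the summed level, 21 of 48 pairs (43.8%, exact Clopper-Pearson 95% interval 29.5 to 58.8%) differed by 1.5-fold or more, the cutoff of the study. The intervals cover counting error only. The median ratio of the higher to the lower daughter was 1.43, from 1.01 in pair 45 to 4.55 in pair 5. By family, the share was 52.1% for H2A, 70.8% for H2B, 80.4% of 46 evaluable pairs for H3, 68.1% of 47 for H4 and 70.8% for H1.

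Single genes differed more often than the sum. A pair was evaluable for a gene when a daughter had 10 or more counts. All 53 members that passed differed by 1.5-fold in at least 50% of evaluable pairs, as did 90.7% of all genes, so this is no property of the members. The shares ranged from 55.6% to 100%, with a median of 89.2% against 81.5% for all genes. Of the 53 members, 44 fell in deciles 1 to 3 of the mean level of all genes, where the medians over all genes were 89.5%, 95.1% and 94.4%.

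The likeness of sister cells was measured by the intraclass correlation (ICC), which is 1 when both daughters match and 0 when they are no more alike than other cells. Its median was 0.21 over the 53 members and 0.16 over all genes. It was over 0.5 for 5 members (9.43%), against 6.9% of all genes. The 5 were H2A genes: H2ac6 (0.56), Hist1h2ap (0.56), Hist1h2an (0.56), Hist1h2ao (0.55) and H2ac15 (0.50). With set means subtracted Hist1h2ap had 0.41 and H2ac6 0.40, and H2ac6 had 0.44 in CPM and 0.42 in TPM. With set means subtracted the medians were 0.07 for members and 0.00148 for all genes. For the summed level the ICC was 0.73, the G2/M score itself having 0.76. That of the summed level was 0.61 in CPM and 0.61 with set means subtracted.

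The lowest values belonged to H2ac18 (-0.18), H2ac20 (-0.13), H4c11 (-0.12), H4c9 (-0.0055) and H4c8 (-0.0048). H4c9 differs from the others in its level. In 25 pairs both daughters had 100 or more counts of H4c9, but in 15 pairs a daughter had 100 or more and its sister under 10, for example 1009 and 1 in pair 10 and 4263 and 3 in pair 35. In 2 pairs both were under 10. It differed by 1.5-fold in 37 of 46 evaluable pairs (80.4%, 66.1 to 90.6%), with a median ratio of 5.34.

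Hist1h2ap was present in both sisters of most pairs, though often at unequal levels. In 43 pairs both daughters had 100 or more counts. It differed by 1.5-fold in 28 of 48 pairs (58.3%, 43.2 to 72.4%), with a median ratio of 1.67. In pair 46, a daughter had 5 counts and its sister 4704, and the same cells had 4656 and 40 counts of H2bc4. The former cell had a G2/M score of -1.21 and the latter of 0.67. Without this pair the ICC of Hist1h2ap was 0.71. H2bc4 had 100 or more counts in both daughters of 27 pairs and in 6 pairs 100 or more beside under 10. For H1f2 these numbers were 18 and 11 pairs.

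**Figure D5:**
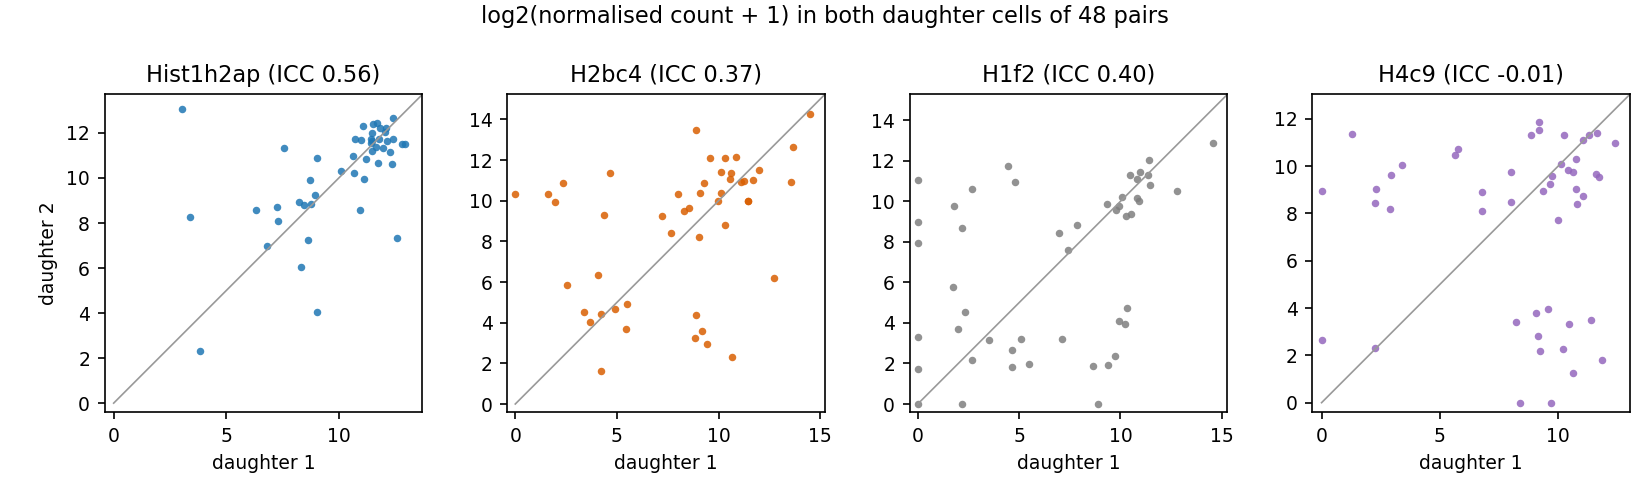
log2(normalised count + 1) in daughter 1 against daughter 2 for Hist1h2ap, H2bc4, H1f2 and H4c9, 1 point per pair (48 pairs), with the line of equal level. Most pairs lie to the upper right for Hist1h2ap (ICC 0.56), pairs spread more widely for H2bc4 (0.37) and H1f2 (0.40), and H4c9 (-0.01) has groups of pairs along both axes.

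Within pairs, the family sums were set side by side. The daughter with more H2A had more H2B in 16 of 48 pairs (33.3%, exact 95% interval 20.4 to 48.4%) and less in the other 32. It had more H3 in 29 pairs (60.4%, 45.3 to 74.2%) and more H4 in 26 (54.2%, 39.2 to 68.6%). It had the higher G2/M score in 31 pairs (64.6%, 49.5 to 77.8%).

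Presence of a member was shared between sisters to a limited extent. Over the 47 members counted in 5 to 91 cells, the sister of a cell with a count also had one in 69.5% of cases, against 58.4% of all cells. At 10 counts the shares over 54 members were 63.4% and 42.2%. The first share of each comparison pools cells over genes and weights the often counted genes more, while the second weights all genes alike. The first would therefore be the higher even if sisters were no more alike than other cells. Gene by gene, the share among sisters was higher for 31 of the 47 members, with a median difference of 2.08 percentage points, and at 10 counts for 40 of 54, with a median of 5.84 points. H4c11 and H2bc13, at 10 or more counts in 10 and 11 cells, were never at that level in both sisters.

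The genes that process histone mRNA were present. All 16 of the list passed the filter, against 26.1% of all genes in the table. A correlation over 0.3 with the S-phase score was found for 8, against 17.2% of all genes. None had an ICC over 0.5, against 6.9% of all genes. Slbp and Casp8ap2 are among the 8 and had been listed as S-phase genes, so their correlations with that score are no separate result. Slbp, which encodes the stem-loop binding protein, was at 10 counts or more in 96 cells, with 12 to 12004 counts, a median TPM of 104.4 and a correlation of 0.47 with the S-phase score. Npat, the coactivator of histone gene transcription, and Casp8ap2 (FLASH), which acts in 3′ end processing, had median TPM of 13.5 and 15.9 and correlations of 0.50 and 0.52. Eri1, a nuclease that trims histone mRNA ends, had 0.49. Lsm11, a part of the U7 particle that directs the cut, reached 10 counts in 32 cells, and Zfp473, which also works with U7, in 11. Lsm10, the partner of Lsm11, had a median TPM of 40.8.

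Of the other factors of the list, the cleavage factors Cpsf2, Cpsf3, Sympk and Cstf2 had median TPM of 26.3, 64.4, 26.4 and 44.5. The cap-binding genes Ncbp1 and Ncbp2 had 59.6 and 35.6, and Srrt, which binds the cap complex, had 76.7. Upf1 and Lsm1, which act in the decay of histone mRNA, had 10.2 and 43.4. With the G2/M score 1 gene of the list, Srrt, exceeded 0.5 (0.55), against 3.7% of all genes.

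Of 11 histone genes outside the rule, which encode variants, 3 had a median TPM above that of every member, and the other 8 lay below Hist1h2ap and Hist1h2ao. H2az1, the gene of H2A.Z, had 13371 to 113724 counts and a median TPM of 2403. H3f3b and H3f3a, both genes of H3.3, had medians of 885.7 and 234.3. Macroh2a1 (140.6), Cenpa (117.8), the linker histone H1f0 (101.6), H2aj (71.4), H2az2 (66.6) and H2ax (47.5) followed, and Macroh2a2 (4.86) and H1f10 (0) were lowest. All 11 passed the filter, against 26.1% of all genes in the table.

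Their median ICC was 0.38, and 3 exceeded 0.5, against 6.9% of all genes: Cenpa (0.80), H2az1 (0.59) and H3f3b (0.59). Their median correlation with the G2/M score was 0.49, and 4 exceeded 0.5, against 3.7% of all genes. The 4 were Cenpa (0.73), H2az1 (0.72), H3f3b (0.63) and H2ax (0.62). Cenpa had been listed as a G2/M gene, so its correlation with that score is no separate result. H2az1 differed by 1.5-fold in 10 of 48 pairs (20.8%), where the lowest share among members that passed was 55.6%. Mean levels differ between both lists, and the part of level in these contrasts was not tested.

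The genes most like the summed level of the 53 members, by Spearman correlation over 96 cells, were led by H2ac5-ps (0.73), the row that the rule left out, and H3f3b (0.67). Ywhaq (0.62), Rps2 (0.61), Sf3b1 (0.60), Gm11808 (0.60) and Gm10108 (0.59) were also among the 10 highest.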

How the data were processed

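The authors trimmed reads with Trimmomatic 0.39, aligned them with STAR 2.7.11a to GRCm38 and quantified genes with StringTie 2.2.1. The deposited files hold estimated counts per gene, rounded up, and per cell tables of TPM, FPKM (not used) and read coverage per gene. The coverage signal, as deposited, served to check the counts. Size factors were medians of ratios over the 22 of 92 ERCC transcripts counted in all cells. Correlations and ICC used log2(normalised count + 1) of the 14463 genes that reached 10 counts in 10% of the cells. A daughter at 0 counted as past the 1.5-fold cutoff. Genes named were the 12 members highest by median TPM, the 5 highest and 5 lowest by ICC and by S-phase correlation, the listed genes and the 10 most alike, of which some are not reported here. Other genes named were chosen after their values were seen. The members and lists were chosen with earlier results of these data known. Since the cells form 1 group, no test was run. The sets of 8 cells were read from deposited names, and what they mean is not given in the sources used here. Gene models and transcripts came from GENCODE M21, in which all 66 members have the span of the deposited tables. Calculations used Python 3.11.15, numpy 2.4.6, pandas 2.3.3 and scipy 1.17.1, and figures matplotlib 3.10.9. The measures were tested on simulated data. The alternatives tried were other scalings, cutoffs, filters, a pseudocount of 10, removal of Hist1h2ap, subtraction of set means and, added after the data were seen, removal of pair 27 or pair 46.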

Additional observations from a re-analysis of the deposited data

How the results depend on the processing

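In all, 203 values were recomputed under other settings. A share was taken as kept within its 95% interval, a count or ratio within 1.5 times, and a correlation within 0.1. By this, 163 were kept, 35 moved and 5 changed sign. The members present per cell fell from 45 at a count of 1 to 25.5 at 10 counts and 24 at a TPM of at least 1, and those passing the filter from 53 to 23 when 10 counts in 50% of cells were asked for. That filter raised the median ICC of members from 0.21 to 0.37 (from 0.16 to 0.19 over all genes), and subtraction of set means lowered it to 0.0687. At a 2-fold cutoff 27.1% of pairs differed in the summed level in place of 43.8%. In CPM the summed level correlated with the S-phase score at 0.11 and with the G2/M score at 0.41, against 0.23 and 0.53, and the median of all genes with the G2/M score fell from 0.17 to 0.03. Pearson correlation gave 0.36 for the S-phase score. H1f2 turned to -0.10 with the G2/M score in CPM and to -0.10 in TPM. The ICC of H4c9 turned to 0.00273 in CPM, to 0.0019 with a pseudocount of 10 and to 0.0343 without pair 46. The H2A sum was positive and H2bc4 negative with the G2/M score in each of the 9 and 8 settings computed for them. Of the counts above 0, 41.7% were under 10.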
